A study of Mus musculus with 4 samples.

Results

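The enzymes of the pentose phosphate pathway were examined in mouse lung tumours driven by mutant K-Ras, with and without a labelled loss of Mll4. The members were 10 genes chosen by symbol out of the 24391 listed: 4 of the oxidative branch (G6pdx, H6pd, Pgls and Pgd), 4 of the non-oxidative branch (Rpia, Rpe, Tkt and Taldo1) and 2 that carry its product towards nucleotides (Prps1 and Prps2). All 10 passed the filter on low counts, as did 16001 genes in all.

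The K-Ras group held 2 tumour samples from mice with the K-Ras LSL-G12D allele, which is silent until Cre recombinase removes a stop cassette. The K-Ras Mll4-/- group held 2 samples with the same K-Ras allele and floxed Mll4 (Mll4 fl/fl). The Cre driver, the ages of the mice and whether tumours were pooled are not given in the sources used here. In both groups cells bearing CD45, the common leukocyte antigen, were depleted before RNA was taken. The labels do not say that replicates came from separate mice, so the p-values measure only the spread between these samples, which may be technical.

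The pathway branches from glycolysis at glucose 6-phosphate. Its oxidative branch makes NADPH, the reducing power for lipid synthesis and for keeping glutathione reduced, and releases ribulose 5-phosphate. The reversible non-oxidative branch interconverts pentose, triose and hexose phosphates, so that carbon can return to glycolysis or flow towards ribose 5-phosphate. Phosphoribosyl pyrophosphate synthetases activate that ribose for purine, pyrimidine and NAD synthesis. Alveolar type 2 cells, the surfactant-making cells of the lung, have a large demand for lipid synthesis.

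The start regions of 3 members are shown because they lead the results: G6pdx and Pgd, the pair with the smallest p-values, and Tkt, among the most abundant. Each is the 250 bases before the annotated start, 5′ to 3′ on the gene's strand, from RefSeq (GRCm38.p6). G6pdx lies at chrX:74428881-74429130 on the minus strand, Pgd at chr4:149166706-149166955 on the minus strand and Tkt at chr14:30548881-30549130 on the plus strand. Capitals mark the GC box (GGGCGG) and the antioxidant response element (TGACNNNGC) on either strand.
G6pdx: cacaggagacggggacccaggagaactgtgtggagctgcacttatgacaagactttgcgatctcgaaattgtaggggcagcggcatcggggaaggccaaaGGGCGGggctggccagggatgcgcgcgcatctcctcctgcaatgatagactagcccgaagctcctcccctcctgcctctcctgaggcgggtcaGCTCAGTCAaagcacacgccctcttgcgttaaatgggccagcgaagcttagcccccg
Pgd: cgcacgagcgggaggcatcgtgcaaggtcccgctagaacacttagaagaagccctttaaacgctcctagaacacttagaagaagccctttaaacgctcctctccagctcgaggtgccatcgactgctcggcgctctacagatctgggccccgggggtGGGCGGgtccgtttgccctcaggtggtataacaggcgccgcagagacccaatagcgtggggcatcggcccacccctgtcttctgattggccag
Tkt: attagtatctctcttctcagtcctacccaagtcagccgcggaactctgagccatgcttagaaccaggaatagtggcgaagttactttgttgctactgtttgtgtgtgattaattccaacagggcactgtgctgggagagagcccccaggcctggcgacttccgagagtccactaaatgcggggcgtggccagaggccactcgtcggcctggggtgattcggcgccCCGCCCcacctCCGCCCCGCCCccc
The table held 11 windows for the 10 members, 2 of them for Pgd, of which the one farther upstream is shown. For H6pd and Taldo1, bases just after the annotated start were not found in an annotated transcript of the gene. The antioxidant response element, to which the transcription factor NRF2 binds, matched in 1 of the 11 windows, that of G6pdx at position -57 on the opposite strand, against 10.2% of all 32851 windows. The GC box matched in 8 of the 11, against 32.7% of all windows, and 2 of the 3 matches in Tkt share a base. The E-box CACGTG matched in 0 of the 11, against 6.0% of all windows, and the CCAAT box in 4 of the 11, against 33.8%. These matches describe letters and were not tied to binding.

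Depth was ample for the members, and the labels rest on the submitters' word. Reads assigned to genes numbered between 26683033 and 36677987 in each library, and a member had between 478 and 10457 reads. At the fewest reads, counting error was 4.57%, which covers counting only. Kmt2d, the present name of the targeted Mll4 gene, was at 395 and 526 CPM (gene reads scaled by TMM to a library of common size) in K-Ras and at 367 and 317 CPM in K-Ras Mll4-/-. Its log2 fold change of -0.43 missed the threshold (edgeR quasi-likelihood adjusted p = 0.302). It was -0.12 with offsets for GC content and length and -0.22 without K-Ras replicate 2, and counts over the whole gene do not resolve a deleted exon. Replicates correlated across genes at r = 0.965 in K-Ras and 0.987 in K-Ras Mll4-/-. Genes are not independent replicates. Markers of other cell types differed between libraries, and those values stand beside the results below.

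G6pdx encodes glucose-6-phosphate dehydrogenase, the rate-setting enzyme of the oxidative branch. It was at 58.3 and 54.4 CPM in the K-Ras libraries and at 86.0 and 94.7 CPM in the K-Ras Mll4-/- libraries. Both K-Ras Mll4-/- libraries lay above both K-Ras libraries, and the replicates within each group were close. The group means were 56.3 ± 2.80 and 90.4 ± 6.12 CPM (SD, n = 2 each). The log2 fold change was 0.68 (SE 0.13, 95% interval 0.35 to 1.01), a ratio of 1.60, short of the threshold for a call, an adjusted p under 0.05 (edgeR quasi-likelihood adjusted p = 0.147, unadjusted p = 0.00367). It ranked 392 by p-value among the 16001 genes. DESeq2 and the edgeR likelihood ratio test called it, with adjusted p values of 0.0156 and 0.0192, and limma-voom did not (adjusted p = 0.158). Without each library in turn, its log2 fold change stayed between 0.60 and 0.75.

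Pgd encodes 6-phosphogluconate dehydrogenase, which makes the other NADPH of the branch. Its levels were 107 and 85.1 CPM in K-Ras and 134 and 131 CPM in K-Ras Mll4-/-. Here too the groups did not overlap, and the wider spread was in K-Ras. The log2 fold change was 0.46 (SE 0.16, 95% interval 0.04 to 0.88), also short of a call (edgeR quasi-likelihood adjusted p = 0.211, unadjusted p = 0.0371). Without K-Ras replicate 2 it was 0.29, and without K-Ras replicate 1 it was 0.64. Scaling by the upper quartile or by total counts gave 0.40, with unadjusted edgeR p values of 0.0647 and 0.0802.

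The other members of the oxidative branch showed no such separation. Pgls encodes 6-phosphogluconolactonase, the hydrolase that acts between the dehydrogenases. It was at 22.8 and 27.0 CPM in K-Ras and at 25.5 and 26.9 CPM in K-Ras Mll4-/-, so the groups overlapped. Its log2 fold change was 0.07 (95% interval -0.34 to 0.49, edgeR quasi-likelihood adjusted p = 0.811), and without K-Ras replicate 1 it was -0.04. With offsets for GC content and transcript length it was 0.29. H6pd encodes hexose-6-phosphate dehydrogenase, which runs the opening oxidative steps inside the endoplasmic reticulum. It was at 193 and 289 CPM in K-Ras and at 206 and 234 CPM in K-Ras Mll4-/-, with K-Ras replicate 2 the highest library. The log2 fold change of H6pd was -0.13 (SE 0.24, 95% interval -0.77 to 0.51, edgeR quasi-likelihood adjusted p = 0.774). Without K-Ras replicate 2 its sign turned, to 0.18, and with the same offsets it was 0.04.

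K-Ras replicate 2, where H6pd was highest, also had the most airway cell transcripts. The 6 ciliated cell markers summed to 97.3 and 586 CPM in the K-Ras libraries and to 53.8 and 58.7 CPM in the K-Ras Mll4-/- libraries. The 5 club cell markers summed to 719 and 3637 CPM in K-Ras and to 776 and 593 CPM in K-Ras Mll4-/-. The part of these cells in the H6pd values was not tested. In a bulk sample, fewer cells of a type and less RNA per cell cannot be told apart.

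**Figure D1:**
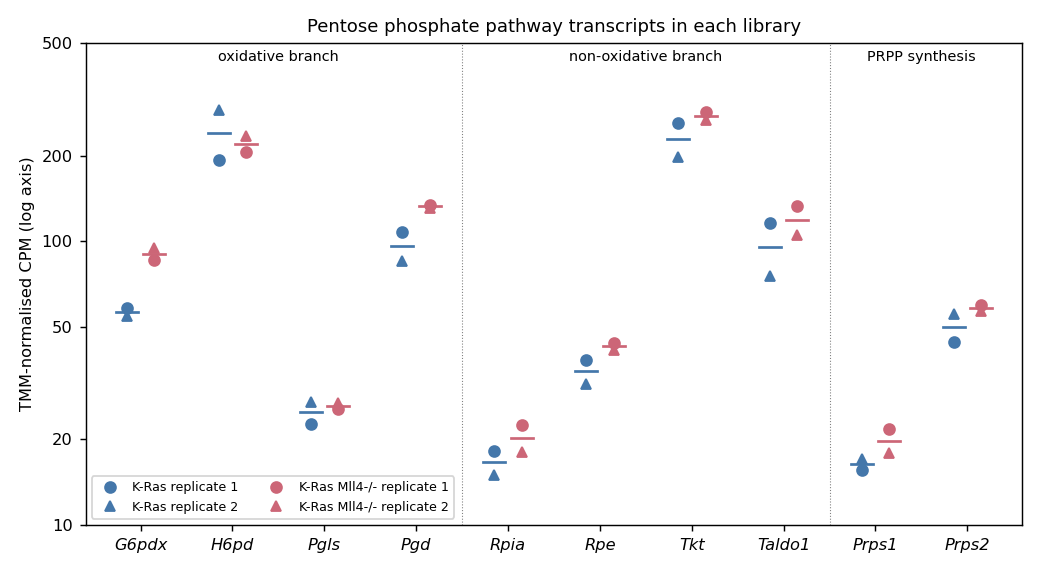
TMM-normalised CPM on a log axis for the 10 enzymes in each of the 4 libraries, by branch (PRPP is phosphoribosyl pyrophosphate), with circles for replicate 1, triangles for replicate 2 and lines at the group means. G6pdx was at 58.3 and 54.4 CPM in K-Ras (blue) and at 86.0 and 94.7 CPM in K-Ras Mll4-/- (red), while the H6pd libraries overlapped.

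The 4 non-oxidative enzymes had log2 fold changes between 0.27 and 0.32, and none was called by any tool run. Tkt encodes transketolase, which moves ketol units between sugar phosphates. It was at 260 and 198 CPM in K-Ras and at 284 and 268 CPM in K-Ras Mll4-/-, so the groups did not overlap, by a narrow margin. Its log2 fold change was 0.27 (SE 0.19, 95% interval -0.22 to 0.76, edgeR quasi-likelihood adjusted p = 0.443). K-Ras replicate 2 was the low library, and without it the log2 fold change was 0.07.

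Taldo1 encodes transaldolase, which passes a dihydroxyacetone unit between sugar phosphates. It was at 116 and 75.3 CPM in K-Ras and at 133 and 105 CPM in K-Ras Mll4-/-, and the groups overlapped. Replicate 2 was the lower library of both groups. The log2 fold change was 0.32 (SE 0.26, 95% interval -0.38 to 1.01, edgeR quasi-likelihood adjusted p = 0.514), and without K-Ras replicate 2 it was 0.03.

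The isomerase and the epimerase act on ribulose 5-phosphate. Rpia encodes ribose-5-phosphate isomerase, which makes the ribose 5-phosphate used for nucleotides. It was at 18.2 and 15.1 CPM in K-Ras and at 22.6 and 18.1 CPM in K-Ras Mll4-/-, with K-Ras replicate 1 just above K-Ras Mll4-/- replicate 2. Its log2 fold change was 0.29 (95% interval -0.24 to 0.82, edgeR quasi-likelihood adjusted p = 0.444), and 0.13 without K-Ras Mll4-/- replicate 1. Rpe encodes ribulose-phosphate 3-epimerase, which makes xylulose 5-phosphate. It was at 38.1 and 31.4 CPM in K-Ras and at 43.9 and 41.2 CPM in K-Ras Mll4-/-, without overlap. The log2 fold change of Rpe was 0.29 (95% interval -0.11 to 0.70, edgeR quasi-likelihood adjusted p = 0.328). With the GC and length offsets it was 0.13.

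Both phosphoribosyl pyrophosphate synthetases were slightly higher in the K-Ras Mll4-/- libraries, and neither was called by any tool run. Prps1 was at 15.6 and 17.1 CPM in K-Ras and at 21.7 and 17.9 CPM in K-Ras Mll4-/-. The margin between the groups was small beside the gap between the K-Ras Mll4-/- replicates. Its log2 fold change was 0.27 (95% interval -0.20 to 0.74, edgeR quasi-likelihood adjusted p = 0.414). Prps2 was at 44.2 and 55.2 CPM in K-Ras and at 59.7 and 56.8 CPM in K-Ras Mll4-/-. The groups lay apart by less than the gap between the K-Ras replicates. The log2 fold change of Prps2 was 0.23 (95% interval -0.18 to 0.64, edgeR quasi-likelihood adjusted p = 0.436), and 0.08 without K-Ras replicate 1. With the GC and length offsets, Prps1 was at 0.13 and Prps2 at 0.11.

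Across the pathway, 0 of the 10 members were called by the edgeR quasi-likelihood test, which called 0.0375% of all tested genes. G6pdx was the 1 member that DESeq2 called and the 1 that the likelihood ratio test called, against 10.0% and 9.39% of all genes, and limma-voom called 0. At an unadjusted edgeR p under 0.05, 2 members were higher and 0 lower, against 11.4% and 10.4% of all genes (21.8% in either direction). In 6 members both K-Ras Mll4-/- libraries lay above both K-Ras libraries, which held for 29.9% of all genes, and in 0 did they lie below both (28.5% of all genes). Groups without overlap made up 58.3% of all genes in either direction. Log2 fold changes were above 0 for 9 of the 10 members, as for 48.8% of all genes. The median over the members was 0.28, against -0.01 over all tested genes. The members were chosen with earlier results known, so no test of the group was made.

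**Figure D2:**
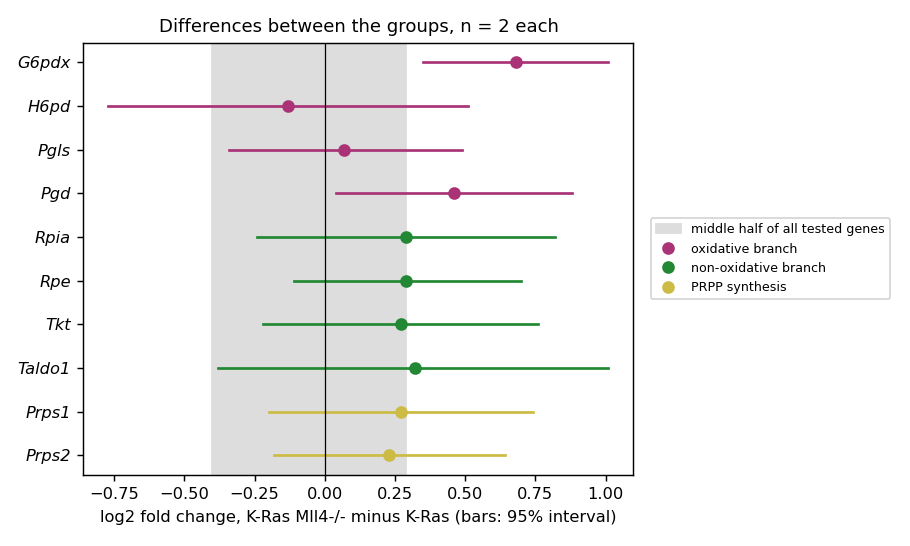
Log2 fold change of each enzyme (points) with its 95% interval from the edgeR fit (bars), K-Ras Mll4-/- minus K-Ras, n = 2 each, coloured by branch, over a grey band for the middle 50% of tested genes (-0.40 to 0.29). The intervals of G6pdx and Pgd lie above 0 and those of the other 8 members include it.

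The median log2 fold change was 0.27 in the oxidative branch, 0.29 in the non-oxidative branch and 0.25 for the synthetases. With the GC and length offsets the medians were 0.40, 0.28 and 0.12, and without K-Ras replicate 2 they were 0.24, 0.11 and 0.36. The oxidative members spread from -0.13 to 0.68, a wider span than that of the non-oxidative ones. The summed RPKM (CPM per kilobase of transcript) of the oxidative branch was 132 and 145 in K-Ras and 160 and 169 in K-Ras Mll4-/-, so the groups lay apart. That of the non-oxidative branch was 199 and 142 in K-Ras and 225 and 194 in K-Ras Mll4-/-, and the groups overlapped. By mean log2 CPM the groups lay apart in both branches. The oxidative branch was at 6.18 and 6.28 in K-Ras and at 6.46 and 6.55 in K-Ras Mll4-/-. The non-oxidative branch was at 6.08 and 5.69 against 6.29 and 6.08, a margin too small to show in these digits. The oxidative branch made up 37.7% and 46.7% of the summed RPKM of the 10 members in K-Ras. In K-Ras Mll4-/- it made up 38.9% and 43.7%, so its share overlapped between the groups. Within the branch, the ratio of G6pdx to H6pd RPKM was 0.541 and 0.336 in K-Ras and 0.748 and 0.724 in K-Ras Mll4-/-. These did not overlap. The exact two-sided permutation test gave p = 0.333, the smallest that 2 against 2 samples allow. Any ratio without overlap must give that value, so the test adds nothing here. The ratio of G6pdx to Pgd was 0.455 and 0.534 in K-Ras and 0.537 and 0.604 in K-Ras Mll4-/-, and that of G6pdx to Tkt was 0.272 and 0.334 against 0.368 and 0.429. Both lay apart between the groups, the first by a narrow margin. The ratios of Tkt to Taldo1, of Rpia to Rpe, of Prps2 to Prps1 and of Pgd to Taldo1 each overlapped.

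Several differences turned on single libraries. In 7 of the 10 members the SD of log2 CPM was larger in K-Ras than in K-Ras Mll4-/-. Examples were H6pd (0.41 against 0.13), Tkt (0.28 against 0.06) and Pgd (0.24 against 0.02). It was smaller for G6pdx (0.07 against 0.10), Rpia (0.19 against 0.23) and Prps1 (0.09 against 0.19). Over all tested genes the median SD was likewise larger in K-Ras, at 0.18 against 0.13. Without K-Ras replicate 1 the median over the members was 0.44 and 5 were higher at an unadjusted edgeR p under 0.05, against 11.7% of all genes tested there. Without K-Ras replicate 2 the median was 0.18 and all 10 were above 0. Without K-Ras Mll4-/- replicate 1 the median was 0.17, with Rpia at 0.13 and Taldo1 and Prps1 at 0.14, and without K-Ras Mll4-/- replicate 2 it was 0.36. K-Ras replicate 1 held the most fibroblast transcripts, with 6 markers summing to 2464 and 1121 CPM in K-Ras and to 837 and 850 CPM in K-Ras Mll4-/-. The 6 endothelial markers summed to 4059 and 4153 CPM in K-Ras and to 3046 and 2360 CPM in K-Ras Mll4-/-. Among these fibroblast and endothelial markers, Lum, Kdr and Emcn overlapped between the groups (log2 fold changes 0.19, -0.17 and 0.19). The sums of the alveolar type 2 markers (8 genes, 18610 to 30540 CPM) and of the leukocyte markers (8 genes, 3146 to 4890 CPM) overlapped between the groups. Lyz2 made up most of the leukocyte sum (2822 to 4303 CPM). Alveolar type 2 cells of mouse lung express Lyz2 too, so the sum does not measure leukocytes alone. Ptprc, which encodes CD45, was at 274.5 and 142.8 CPM in K-Ras and at 268.9 and 170.7 CPM in K-Ras Mll4-/-. Of the 8 leukocyte markers, 2 lay lower in both K-Ras Mll4-/- libraries, Itgam and S100a8 (log2 fold changes -1.55 and -1.41), and 6 overlapped. Of the 8 alveolar type 2 markers, Sftpa1 and Napsa lay lower in both (-0.37 and -0.33), Sftpb lay higher (1.03) and 5 overlapped. Lower in both were also 6 of 6 ciliated, 5 of 6 fibroblast, 4 of 6 endothelial and 2 of 5 club cell markers. Over all genes, 28.5% lay lower in both and 29.9% higher. No marker was called by the edgeR quasi-likelihood test (0.0375% of all genes). None of the 39 markers was at 0 in any library, and the part of other cells in the pathway values was not tested.

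**Figure D3:**
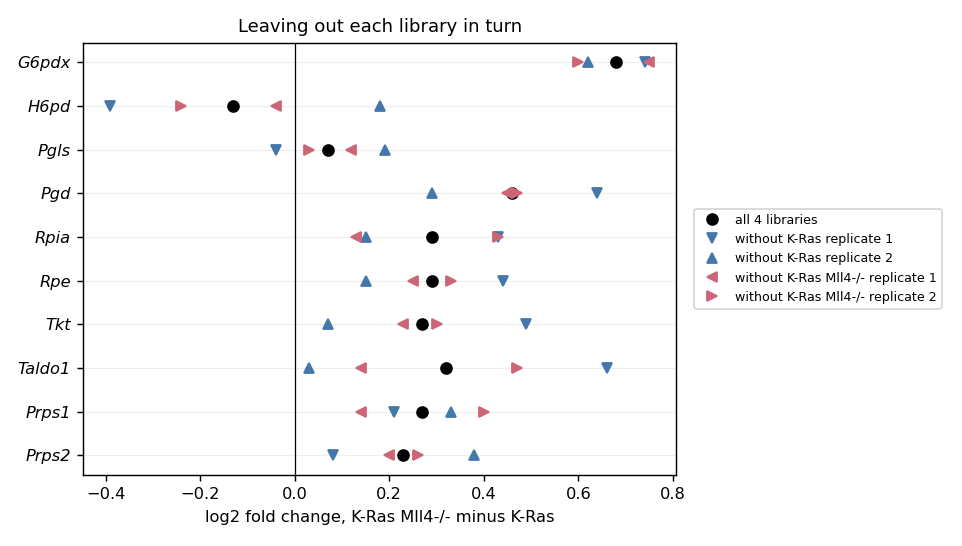
Log2 fold change of each enzyme with all 4 libraries (black) and without each library in turn (blue for K-Ras, red for K-Ras Mll4-/-). G6pdx stays between 0.60 and 0.75, while H6pd runs from -0.39 to 0.18 and Taldo1 from 0.03 to 0.66.

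The enzymes differed in abundance by about an order of magnitude. Mean RPKM over the 4 libraries was 87.2 for Taldo1, 78.4 for Tkt, 51.6 for Pgd, 48.6 for H6pd and 27.7 for G6pdx. It was 24.1 for Pgls, 14.6 for Prps2, 14.2 for Rpe, 10.1 for Rpia and 9.21 for Prps1. Taldo1 and Tkt overlapped in range, as did Pgd and H6pd, G6pdx and Pgls, and Prps2 with Rpe. Rpe and Rpia overlapped as well, as did Rpia and Prps1. The steps from Tkt to Pgd, from H6pd to G6pdx and from Pgls to Prps2 showed no overlap in any library. Lengths are those of the longest GENCODE M21 transcript matched to RefSeq, a choice made after seeing the data. With the longest transcript of any kind, Pgd would be at 31.4 RPKM and Pgls at 9.50 RPKM. Rpia would then be at 5.07 RPKM, the lowest of the 10, and Taldo1 at 78.7 RPKM, level with Tkt.

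**Figure D4:**
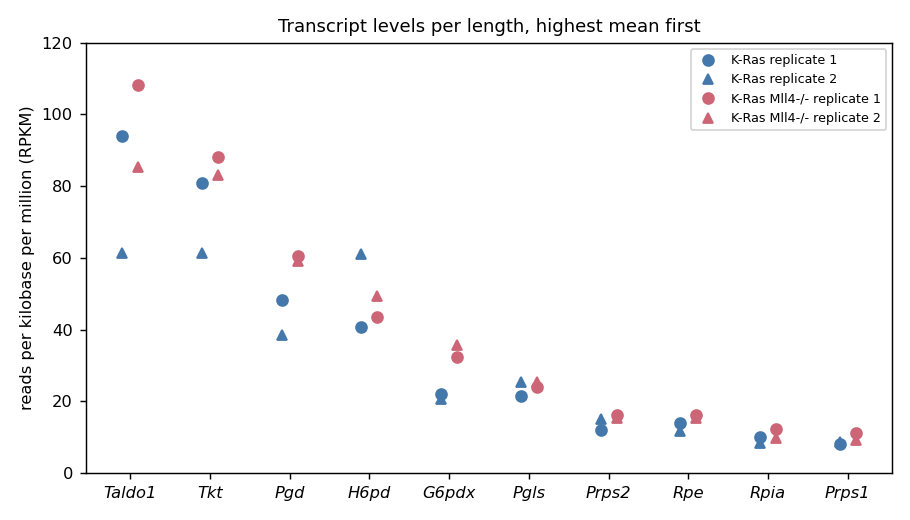
RPKM of each enzyme in each of the 4 libraries, ordered by mean, on a linear axis from 0 (blue K-Ras, red K-Ras Mll4-/-). Taldo1 and Tkt, with means of 87.2 and 78.4 RPKM, lead, and Rpia and Prps1 are lowest.

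Some members share sequence with other genes, so their counts are less certain. Of the 50-base stretches of the G6pdx transcript, 10.7% also occurred in transcripts of other genes, mostly in G6pd2, an intronless copy. G6pd2 itself had at most 1 read in a library. Prps1 shared 10.1% of its stretches with Prps1l3, a related copy with 1190 to 1763 reads per library, more than Prps1. Prps1l3 was at 38.92 and 41.95 CPM in K-Ras and at 47.2 and 54.7 CPM in K-Ras Mll4-/-, with a log2 fold change of 0.33 (edgeR quasi-likelihood adjusted p = 0.256). Taldo1 shared 12.4% with Gm17823 and Rpe 19.1% with Kansl1l. The exons of Kansl1l run over 17.9% of the exonic bases of Rpe on the other strand. Exons of Ikbkg cover 13.6% of G6pdx on the other strand, and exons of Fam129c cover 20.6% of Pgls on the same strand. The strand setting of the counting is not given in the sources used here, so reads in stretches shared across strands cannot be told apart. The Pgls overlap, on the same strand, does not depend on that setting. It is a share of all annotated Pgls exons, and the Pgls transcript used for length shared 0 of its 50-base stretches with other genes. H6pd, Pgd and Rpia shared neither stretches nor exons with another gene, and Tkt shared 1 base with Mir3076.

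The remaining copies were near absent. Tktl1, a transketolase-like gene, had 9 to 16 reads per library and Prps1l1 had 11 to 14, while Tktl2 had at most 1. Tktl1 had a log2 fold change of 0.11 (95% interval -1.46 to 1.68), and Prps1l1 one of 0.36 (95% interval -0.87 to 1.60).

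Of 16 other genes around the pathway, 14 were tested. The edgeR quasi-likelihood test called 0 of them (0.0375% of all genes). At an unadjusted edgeR p under 0.05, 3 were higher and 0 lower, against 11.4% and 10.4% of all genes. With DESeq2, and also with the likelihood ratio test, 2 passed, Gpi1 and Pgm2, against 10.0% and 9.39% of all genes. The median log2 fold change over the 14 was 0.12. Gpi1 encodes glucose-6-phosphate isomerase, which draws on the same substrate as G6pdx. It was at 313 and 290 CPM in K-Ras and at 574 and 775 CPM in K-Ras Mll4-/-, a log2 fold change of 1.16 (SE 0.21, edgeR quasi-likelihood adjusted p = 0.147, DESeq2 adjusted p = 1.76e-04). The difference for Gpi1 was larger than for any of the 10 members. Pgm2 was at 61.5 and 63.9 CPM in K-Ras and at 103 and 129 CPM in K-Ras Mll4-/-, with a log2 fold change of 0.89 (edgeR quasi-likelihood adjusted p = 0.147, DESeq2 adjusted p = 0.00343). The symbols Pgm1 and Pgm2 have been exchanged between mouse phosphoglucomutase genes, so which enzyme this row counts is uncertain.

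Tigar, chosen for mention after its values were seen, encodes a phosphatase that lowers fructose 2,6-bisphosphate. It was at 17.2 and 15.2 CPM in K-Ras and at 23.2 and 29.6 CPM in K-Ras Mll4-/-, with a log2 fold change of 0.70 (edgeR quasi-likelihood adjusted p = 0.177). The lowest log2 fold changes of the list were those of Prpsap2, a regulatory partner of the synthetases (-0.16), and of Rbks, ribokinase (-0.09). Neither had an unadjusted edgeR p under 0.05.

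In the list of other routes to NADPH, some of the 12 genes, Mthfd2 among them, encode enzymes that do not mainly make NADPH. The 12 genes gave 0 calls in the edgeR quasi-likelihood test (0.0375% of all genes). At an unadjusted edgeR p under 0.05, 3 were higher and 0 lower, against 11.4% and 10.4% of all genes. Their median log2 fold change was 0.28. With DESeq2, and also with the likelihood ratio test, 1 of them, Mthfd2, passed, against 10.0% and 9.39% of all genes. Mthfd2, a mitochondrial folate enzyme, was at 8.70 and 8.97 CPM in K-Ras and at 35.6 and 42.8 CPM in K-Ras Mll4-/-. Its log2 fold change was 2.15 (SE 0.17, edgeR quasi-likelihood adjusted p = 0.0839, DESeq2 adjusted p = 2.15e-14), which ranked 16 by the quasi-likelihood p-value among all genes. The edgeR quasi-likelihood test called Mthfd2 with no count filter (adjusted p = 0.0265) and did not with GC and length offsets (adjusted p = 0.104). Without each library in turn, the log2 fold change of Mthfd2 stayed between 2.00 and 2.28. Me1, cytosolic malic enzyme, was at 67.9 and 120 CPM in K-Ras and at 157 and 212 CPM in K-Ras Mll4-/- (log2 fold change 0.97, edgeR quasi-likelihood adjusted p = 0.211). Me3, a mitochondrial malic enzyme, was lowest, at 1.90 and 3.90 CPM in K-Ras and 1.33 CPM in both K-Ras Mll4-/- libraries (log2 fold change -1.12, edgeR quasi-likelihood adjusted p = 0.256). Without K-Ras replicate 2 the Me3 log2 fold change was -0.52. Nnt, the mitochondrial transhydrogenase, was at 24.6 and 60.6 CPM in K-Ras and at 24.1 and 30.1 CPM in K-Ras Mll4-/-. The Nnt difference (-0.65) rested on K-Ras replicate 2, and without it the log2 fold change was 0.12.

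Of 18 genes of nucleotide and NAD synthesis, the edgeR quasi-likelihood test called 0 (0.0375% of all genes). At an unadjusted edgeR p under 0.05, 6 were higher and 0 lower, against 11.4% and 10.4% of all genes. With DESeq2, and also with the likelihood ratio test, 2 passed, Paics and Atic, against 10.0% and 9.39% of all genes. Atic, a purine enzyme, was named after its values were seen. The median log2 fold change was 0.29. Paics, an enzyme of purine synthesis, was at 101 and 120 CPM in K-Ras and at 191 and 245 CPM in K-Ras Mll4-/- (log2 fold change 0.99, edgeR quasi-likelihood adjusted p = 0.147, DESeq2 adjusted p = 0.00221). Adss, which commits inosine monophosphate to adenine nucleotides, had a log2 fold change of 0.83 (edgeR quasi-likelihood adjusted p = 0.199). Impdh1 and Dhodh were lowest, at -0.35 and -0.15. Impdh1 was at 134 and 139 CPM in K-Ras and at 118 and 95.5 CPM in K-Ras Mll4-/-, with an edgeR quasi-likelihood adjusted p of 0.269. For both genes the K-Ras Mll4-/- libraries lay below the K-Ras libraries.

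**Figure D5:**
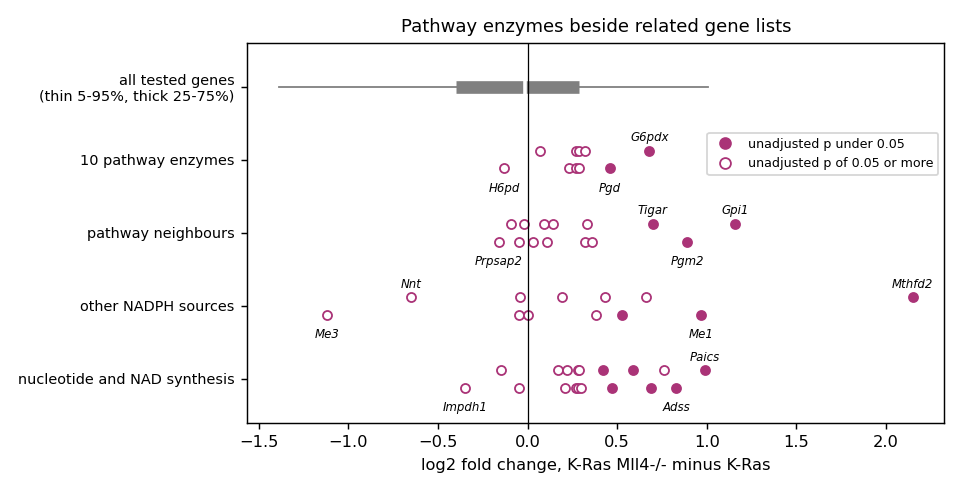
Log2 fold change of each tested gene in the 10 enzymes and in 3 related lists, below the spread of all tested genes (thin line for the middle 90%, thick for the middle 50%), filled where the unadjusted edgeR p was under 0.05. Gpi1 at 1.16 and Mthfd2 at 2.15 lie beyond G6pdx at 0.68, and no gene named here was called by the edgeR quasi-likelihood test, while DESeq2 and the likelihood ratio test called G6pdx, Gpi1, Pgm2, Mthfd2 and Paics.

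Patterns close to those of the members were common. By the root mean square difference of centred log2 CPM over the 4 libraries, the genes nearest to G6pdx were Kif22 (0.008), Cks2 (0.018) and 0610009B22Rik (0.022). Nearest to Tkt were Slmo2 (0.005), AI413582 (0.005) and Akr1a1 (0.009). Within a distance of 0.1 there were 299 genes for G6pdx and 630 for Tkt, so 4 libraries do not single out a few.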

How the data were processed

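The files hold raw read counts per gene symbol, deposited by the authors as one file per tumour library in HTSeq layout. The submitters' processing notes name CASAVA 1.4, STAR, HTSeq and the build mm9; the annotation, read length and strand setting are not given in the sources used here. Groups and replicate numbers come from the sample titles. Counts were filtered with filterByExpr, scaled by TMM and compared with the robust quasi-likelihood test of edgeR 4.0.16 (R 4.3.3) over 16001 genes, with Benjamini-Hochberg adjustment and calls at an adjusted p under 0.05. SE is the log2 fold change divided by the square root of F, and 95% intervals use the fit's degrees of freedom. Alternatives were DESeq2 1.42.0, limma-voom (limma 3.58.1), the likelihood ratio test, other scalings and filters, a replicate block, GC and length offsets (mgcv 1.9.3) and leaving out each library. The quasi-likelihood test, the likelihood ratio test, DESeq2 and limma-voom were run on simulated counts, with the main filter only. Scaling there was by TMM except for DESeq2, which used its own default scaling there and in the data. Gene-assigned reads were 29096295 and 36677987 in K-Ras and 26683033 and 32887250 in K-Ras Mll4-/-. Reads aligned to more than 1 place stayed out of the genes. Named genes were all members, the copies of members, the genes nearest in pattern to G6pdx and Tkt, and the 2 highest and 2 lowest tested genes of each related list by log2 fold change. Tigar, Atic and single markers were named after their values were seen. The members and lists were chosen with earlier results of these data known. GENCODE M21 and RefSeq are on GRCm38, not the authors' build, and give only lengths, overlaps and start regions here.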

Additional observations from a re-analysis of the deposited data

How the results depend on the processing

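Against 6 called genes, no count filter gave 44, DESeq2 1601, the likelihood ratio test 1503, limma-voom 0 (3228 at an unadjusted p under 0.05), GC and length offsets 2, and single libraries left out 0 to 528, the highest without K-Ras replicate 1 and 0 without each other library. The lone sample of a group was then assumed to vary like the other group. Members called were 1 with DESeq2, 1 with the likelihood ratio test and 0 in each other alternative. The members' median log2 fold change of 0.28 was 0.22 with upper quartile scaling and 0.17 to 0.44 with a library left out. H6pd turned to 0.04 with GC and length offsets, 0.06 with block and offsets, and ran from -0.39 to 0.18 with a library left out, as Pgls did from -0.04 to 0.19 and Nnt from -1.16 to 0.12. Tktl1, with at most 16 reads, turned to -0.01 with the offsets and -0.07 with block and offsets, and ran from -0.54 to 0.57. The cause was not tested. Same-numbered samples deviated together at r = 0.24 across genes, but the labels do not say what they share. The replicate block gave 217 calls, and with GC and length offsets 110, with 0 members called in either. Mthfd2 was called in both (edgeR adjusted p = 0.0214 and 0.0363). With the replicate block the members' median was 0.28.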
